A study of Mus musculus with 12 samples.

Results

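The classical, zinc-dependent histone deacetylases were followed across whole livers of knockout and diet-fed mice. The family was defined by 10 gene symbols (Hdac1, Hdac2, Hdac3, Hdac5, Hdac6, Hdac7, Hdac8, Hdac9, Hdac10 and Hdac11), and every probe set annotated with 1 of them was taken. This gave 10 probe sets for 8 genes, out of 22626 probe sets and 12393 genes with a probe set of their own. Hdac7 and Hdac11 had 2 probe sets each, and the other 6 genes had 1. Hdac8 and Hdac10 had no probe set annotated to them and, like Hdac4, were not analysed here. The livers came from female C57BL/6 mice aged 8 to 12 weeks and were measured on Affymetrix Mouse430A arrays, 3 per group. The knockout groups lacked HDAC6 or HDAC9. The other 2 of the 4 groups were wild-type mice, fed either a high-fat diet (60% of calories as fat) or regular chow (25% of calories as fat). The labels gave no diet for the knockout mice, did not say which part of either gene was deleted or in which cells, and did not state that each array came from its own mouse. P-values therefore measure the spread between these samples, which may be technical.

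Histone deacetylases remove acetyl groups from lysines. The class I enzymes HDAC1, HDAC2 and HDAC3 are nuclear and work as catalytic subunits of corepressor complexes: HDAC1 and HDAC2 in NuRD, SIN3 and CoREST, and HDAC3 in the NCoR complex, which in liver restrains lipid synthesis genes with the clock repressor REV-ERB alpha. The class IIa proteins HDAC5, HDAC7 and HDAC9 bind MEF2 transcription factors, have little deacetylase activity of their own and move between nucleus and cytoplasm when phosphorylated, and in hepatocytes fasting signals send them into the nucleus. HDAC6, of class IIb, is a mainly cytoplasmic enzyme that deacetylates alpha-tubulin, cortactin and HSP90 and binds ubiquitin chains. HDAC11, the only class IV member, also removes long fatty acyl groups from lysines.

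Expression was read as log2 values, so that a difference of 1 is a doubling of signal, and the array medians lay between 5.78 and 5.86. The hepatocyte markers Alb and Ttr read at least 13.91 on every array. HDAC9 knockout replicate 2 stood apart from the other 11 arrays in its exocrine pancreas transcripts: the median deviation of 9 pancreas markers from their 12-array means was 3.66 there and at most 0.11 elsewhere. Values of different probe sets are not compared with each other, because probes differ in their response. The exception is mean levels set beside those of genes of other tissues, which is a rough guide only.

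The sequences around the start sites of the genes the results turn on are shown first, since 2 of them are the deleted genes. RefSeq promoter windows (GRCm38.p6, 250 bases before to 50 bases after a start) were kept for 7 of the 10 genes. Several starts were kept for Hdac7 and Hdac9. A gene outside these 7 may still have a RefSeq window. The windows of Hdac6 (chrX:7947840-7948139, minus strand), of the upstream and downstream starts of Hdac9 (chr12:34917046-34917345 and chr12:34528840-34529139, minus strand) and of Hdac11 (chr6:91156565-91156864, plus strand) are printed 5′ to 3′. Capitals mark the GC box GGGCGG, the CCAAT box (letters CCAAT) and the TATA box (letters TATAAA), each searched on both strands.
Hdac6: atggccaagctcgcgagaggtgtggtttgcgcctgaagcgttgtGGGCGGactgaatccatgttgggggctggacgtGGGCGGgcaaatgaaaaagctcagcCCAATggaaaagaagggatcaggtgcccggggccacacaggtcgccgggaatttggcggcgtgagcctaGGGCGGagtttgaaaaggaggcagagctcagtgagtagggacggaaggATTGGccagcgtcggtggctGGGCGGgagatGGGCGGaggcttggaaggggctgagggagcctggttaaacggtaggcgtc
Hdac9 upstream start: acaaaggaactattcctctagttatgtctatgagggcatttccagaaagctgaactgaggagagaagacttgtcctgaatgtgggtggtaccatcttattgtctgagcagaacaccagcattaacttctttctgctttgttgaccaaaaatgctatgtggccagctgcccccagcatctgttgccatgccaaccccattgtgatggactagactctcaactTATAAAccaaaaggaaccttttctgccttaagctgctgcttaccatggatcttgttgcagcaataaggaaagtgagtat
Hdac9 downstream start: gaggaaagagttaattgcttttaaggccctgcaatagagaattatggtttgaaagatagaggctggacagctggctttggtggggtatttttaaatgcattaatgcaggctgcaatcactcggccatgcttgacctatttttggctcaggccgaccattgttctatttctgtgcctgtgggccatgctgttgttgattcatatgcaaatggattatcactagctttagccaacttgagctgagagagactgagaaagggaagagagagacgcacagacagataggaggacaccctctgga
Hdac11: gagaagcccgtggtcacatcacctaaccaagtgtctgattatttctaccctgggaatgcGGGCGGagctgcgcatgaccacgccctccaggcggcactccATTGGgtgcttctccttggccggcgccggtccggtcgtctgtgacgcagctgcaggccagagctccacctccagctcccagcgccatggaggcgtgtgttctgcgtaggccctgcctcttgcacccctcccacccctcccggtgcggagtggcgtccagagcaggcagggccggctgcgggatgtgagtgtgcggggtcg
The Hdac6 window held 5 GC boxes, 2 CCAAT boxes and 20 CpG dinucleotides. The Hdac11 window held 1 GC box, 1 CCAAT box and 22 CpGs. The Hdac9 windows held no GC box and no CCAAT box, with 0 CpGs and a TATA-box match at the upstream start and 3 CpGs at the downstream start. Of 32841 mouse promoter windows of this length, 35.7% held the GC box, 37.4% the CCAAT box and 13.6% the TATA box, and the median was 7 CpGs. These matches describe letters only.

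Hdac6 was the single member of the family whose transcript passed the test in the HDAC6 knockout livers. Its probe set, 1448928_at, read 6.17, 6.16 and 6.51 on the HDAC6 knockout arrays, 7.96, 7.95 and 8.03 on the HDAC9 knockout arrays, 7.46, 7.97 and 7.80 on the high-fat arrays, and 7.89, 7.98 and 7.86 on the chow arrays. All 3 HDAC6 knockout arrays lay below the other 9, with a gap of 0.95 between the highest knockout array and the lowest other array. Hdac6 fell by 1.63 against chow on the log2 scale (SE 0.135, limma adjusted p = 0.000188), a 3.10-fold difference, and ranked first by p-value among all probe sets. In that comparison 0.00442% of probe sets were called, which is Hdac6 alone. Adipocyte markers moved with Hdac6: the median deviation of 5 of them correlated with it at r = 0.66 over the 12 arrays, running from -0.26 to -0.17 in HDAC6 knockout livers and from -0.21 to 0.07 in chow livers. Mean levels of the 5 markers over the 12 arrays ran from 2.65 to 7.22, with a median of 3.12. For 17 genes of other tissues, taken as background, that median was 3.14. The highest deviation of the adipocyte markers, 0.28, was that of HDAC9 knockout replicate 2, whose pancreas transcripts stood out. With 3 of the 5 adipocyte markers lower in HDAC6 knockout livers and 0 called, their part in the Hdac6 values was not tested. The knockout livers kept 32.2% of the chow signal (95% interval 26.4% to 39.4%). Where the Hdac6 probes lie relative to the deleted part was not given in the sources used here, so the size of the remaining signal says nothing of the amount of intact transcript.

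No difference in Hdac6 among the other 3 groups passed the test. The order of the group means was HDAC9 knockout (7.98 ± 0.042), chow (7.91 ± 0.060), high-fat (7.74 ± 0.262) and HDAC6 knockout (6.28 ± 0.198; SD, n = 3 each). The HDAC9 knockout differed from chow by 0.07 (95% interval -0.22 to 0.36, limma adjusted p = 0.963), and the high-fat group differed from chow by -0.17 (-0.46 to 0.12, adjusted p = 0.791). Between high-fat and HDAC9 knockout livers it was -0.24 (-0.52 to 0.05, adjusted p = 0.824), and -0.09 without high-fat replicate 1. High-fat replicate 1, at 7.46, was the lowest of the other 9 arrays, and without it the high-fat difference from chow was -0.02. Without high-fat replicate 2 that difference was -0.28. The HDAC9 knockout livers stood above the HDAC6 knockout livers by 1.70 (SE 0.135, adjusted p = 0.000112), the single probe set called between the knockouts (0.00442% of all). Hdac6 was also the single member with an unadjusted p under 0.05 there, where 3.7% of all probe sets had one. The high-fat livers stood above them by 1.47 (SE 0.135, adjusted p = 0.000150), in a comparison where 0.128% of probe sets were called.

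**Figure D1:**
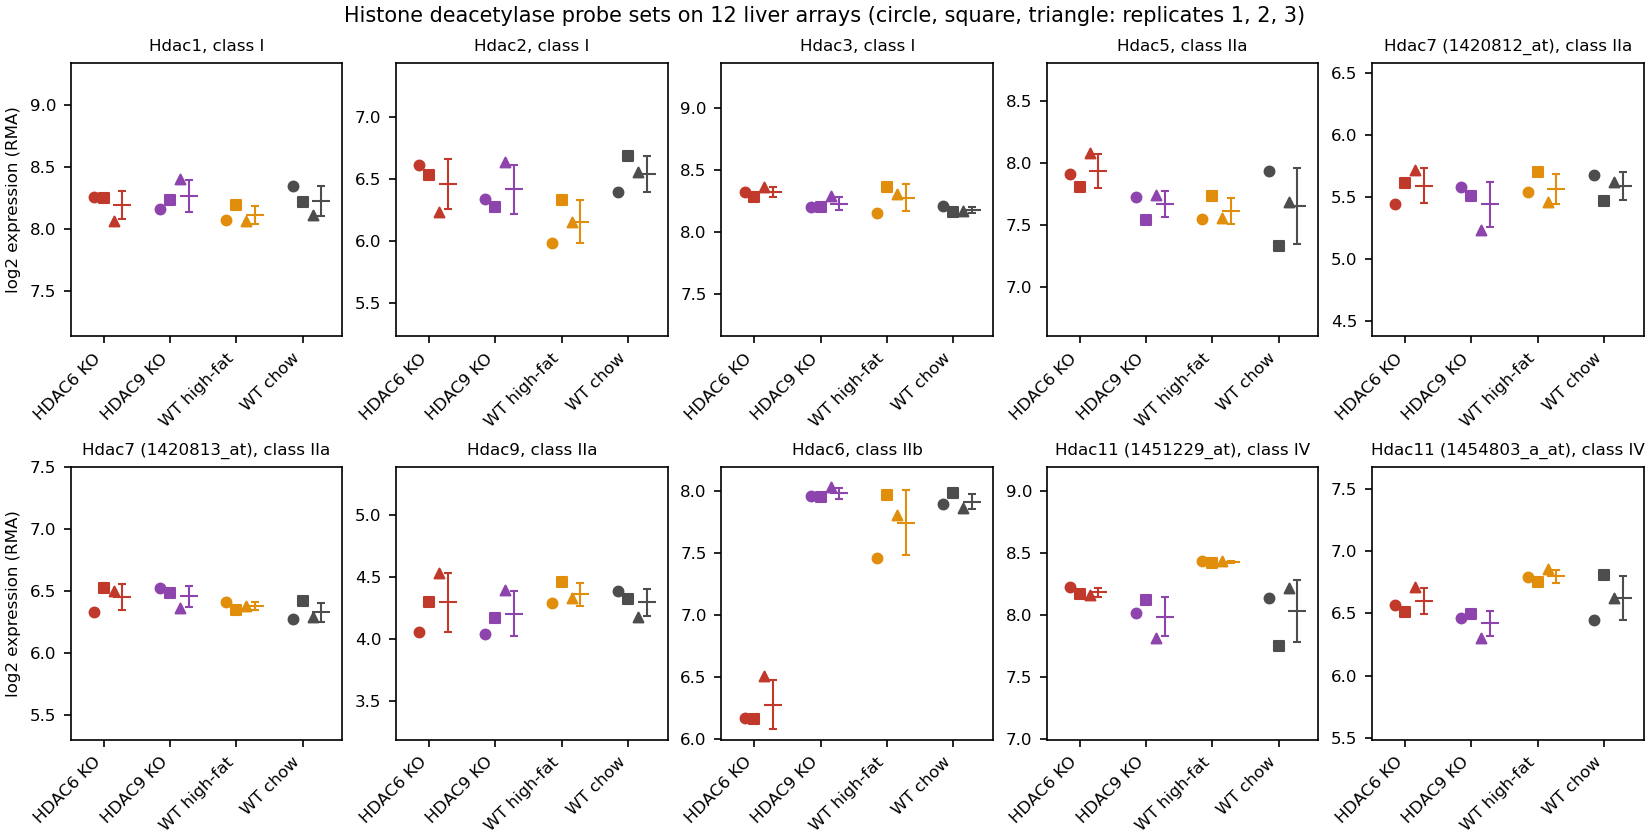
Log2 expression (y axis, each panel spanning the same number of log2 units) of the 10 histone deacetylase probe sets on the 12 arrays (points, with circle, square and triangle for replicates 1, 2 and 3) with the group mean ± SD (bar, n = 3). Hdac6 reads between 6.16 and 6.51 in HDAC6 knockout livers and at least 7.46 on the other 9 arrays, while the groups of the other members lie close together.

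Hdac9, the other deleted gene, read between 4.04 and 4.53 on the 12 arrays, and its deletion could not be seen in its own transcript. The values were 4.06, 4.30 and 4.53 in HDAC6 knockout livers, 4.04, 4.17 and 4.40 in HDAC9 knockout livers, 4.29, 4.46 and 4.33 in high-fat livers, and 4.39, 4.33 and 4.18 in chow livers. The HDAC9 knockout arrays overlapped those of every other group. The difference between HDAC9 knockout and chow was -0.09 (95% interval -0.38 to 0.19, limma adjusted p = 0.949), and -0.08 without HDAC9 knockout replicate 2, whose pancreas transcripts stood out. That interval leaves out a fall of the size seen for Hdac6 in its own knockout. The 17 background genes had 12-array means from 2.38 to 6.93 (median 3.14), and the Hdac9 mean of 4.29 lay inside that range. So did the means of Hdac2 (6.39), both Hdac7 probe sets (5.54 and 6.41) and Hdac11 probe set 1454803_a_at (6.61). With a level inside the background range, the Hdac9 interval does not tell whether Hdac9 transcript was lost. Whether this probe set could register a fall below the chow signal was not tested. The Hdac9 probe set, 1421306_a_at, is of the kind that matches several transcripts of its gene. It correlated with endothelial markers at r = -0.52 and with hepatocyte markers at r = 0.43, and their part in its values was not tested.

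The question of whether other family members change when Hdac6 is missing was read from the 9 remaining probe sets. None was called in the HDAC6 knockout livers (limma, 0 at an unadjusted p under 0.05, where 5.96% of all probe sets passed that mark). Of the 9, 5 had higher and 4 lower means than in chow livers, with differences from -0.09 for Hdac2 to 0.28 for Hdac5 and adjusted p of at least 0.851. Taken singly, the 95% intervals of the 9 differences lay between -0.39 and 0.58, so that a fall of more than 1.31-fold or a rise of more than 1.50-fold lay outside every one of them. These bounds hold for signal. Whether each of the 9 probe sets, that of Hdac9 among them, could register a fall in transcript was not tested.

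Hdac5 (probe set 1415743_at), a class IIa protein, had the largest of these differences. It read 7.91, 7.81 and 8.08 in HDAC6 knockout livers, 7.73, 7.55 and 7.74 in HDAC9 knockout livers, 7.55, 7.73 and 7.56 in high-fat livers, and 7.94, 7.33 and 7.69 in chow livers. The HDAC6 knockout arrays lay above all arrays of the HDAC9 knockout and high-fat groups and overlapped those of chow, where replicate 1 was high and replicate 2 low. The difference from chow was 0.28 (SE 0.141, unadjusted p = 0.066, limma adjusted p = 0.851). It was 0.12 without chow replicate 2 and 0.43 without chow replicate 1. The high-fat group lay below the HDAC6 knockout group by 0.32 (SE 0.141, unadjusted p = 0.040, adjusted p = 0.743), and the HDAC9 knockout lay below it by 0.26 (SE 0.141, adjusted p = 1.000). Between high-fat and HDAC6 knockout livers 2 members, Hdac6 and Hdac5, had an unadjusted p under 0.05, where 6.46% of all probe sets did. Between the knockouts the arrays of 4 of the 10 member probe sets did not overlap, where 8.57% of all did not, and between high-fat and HDAC6 knockout livers likewise 4 of 10, where 12.4% of all did not. These were Hdac6, Hdac5 and both probe sets of Hdac11. The adipocyte markers, whose mean levels had a median of 3.12, correlated with Hdac5 at r = -0.59, and their part in its values was not tested.

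Hdac3 (probe set 1426437_s_at), the catalytic subunit of the NCoR complex, was the single one of the 9 whose HDAC6 knockout and chow arrays did not overlap, as 9.86% of all probe sets did not. It read 8.32, 8.28 and 8.37 in HDAC6 knockout livers, 8.20, 8.20 and 8.29 in HDAC9 knockout livers, 8.16, 8.37 and 8.31 in high-fat livers, and 8.21, 8.17 and 8.17 in chow livers. The 12 arrays spanned 0.21, the narrowest range of the 10 probe sets. The difference between HDAC6 knockout and chow was 0.14 (95% interval -0.05 to 0.34, limma adjusted p = 0.886). The Hdac3 probe set is of the kind whose probes may match transcripts of other genes, so its value may not be that of Hdac3 alone. It correlated with hepatocyte markers at r = 0.435 and with adipocyte markers at r = -0.37, and their part in its values was not tested.

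In HDAC9 knockout livers no family member was called (limma, 0 of 10 at an unadjusted p under 0.05), against 0.00884% of all probe sets called and 5.76% at that unadjusted mark. The 10 differences from chow ran from -0.21 to 0.13, and for each of the 10 the HDAC9 knockout arrays overlapped the chow arrays, where 11.9% of all probe sets were free of overlap. Leaving Hdac6 aside, the 95% intervals reached from -0.45 for Hdac11 to 0.35 for Hdac7, or at most a 1.37-fold fall and a 1.27-fold rise of signal. The interval of Hdac9 is among them, and it does not tell whether Hdac9 transcript was lost. The lowest unadjusted p, 0.097, belonged to the Hdac11 probe set 1454803_a_at (difference -0.21, SE 0.116, adjusted p = 0.878), and without chow replicate 2 that difference was -0.12. The closest relatives of HDAC9 in the family showed differences of 0.02 for Hdac5 (-0.28 to 0.32), -0.15 for Hdac7 probe set 1420812_at (-0.42 to 0.12) and 0.13 for Hdac7 probe set 1420813_at (-0.09 to 0.35). Without HDAC9 knockout replicate 3 the difference of 1420812_at was -0.04. Without the array with pancreas transcripts the count stayed at 0 called.

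**Figure D2:**
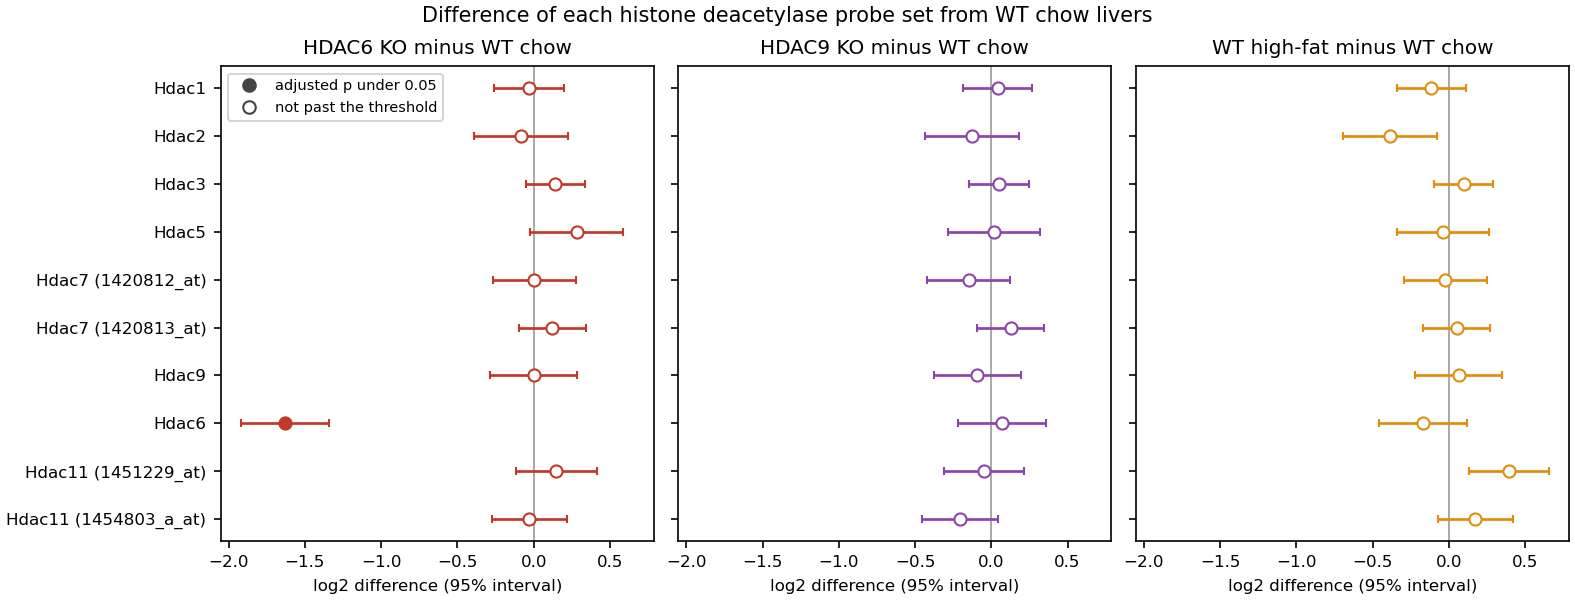
Log2 difference of each of the 10 probe sets from chow livers (x axis, point with its 95% interval from the limma fit) in HDAC6 knockout, HDAC9 knockout and high-fat livers, with filled points for an adjusted p under 0.05. The filled point is Hdac6 at -1.63 in HDAC6 knockout livers, and all other differences lie between -0.39 and 0.39.

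In wild-type mice on the high-fat diet, Hdac11 had the highest and Hdac2 the lowest difference from chow, and neither passed the test. No member was called (limma, 0 of 10), where 0.19% of all probe sets were, and 2 of 10 had an unadjusted p under 0.05, where 8.16% of all did. The same 2 probe sets, 1 of Hdac11 and that of Hdac2, had high-fat arrays clear of the chow arrays, as 14.5% of all probe sets did.

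Hdac11 probe set 1451229_at read 8.22, 8.17 and 8.16 in HDAC6 knockout livers, 8.02, 8.12 and 7.82 in HDAC9 knockout livers, 8.43, 8.42 and 8.44 in high-fat livers, and 8.14, 7.75 and 8.22 in chow livers. All 3 high-fat arrays lay above the other 9, the highest of which read 8.22. The high-fat group was 0.39 above chow (SE 0.123, 95% interval 0.13 to 0.66, unadjusted p = 0.0065, limma adjusted p = 0.375), a 1.31-fold difference. Without chow replicate 2 the difference was 0.25. The high-fat group was 0.44 above the HDAC9 knockout (SE 0.123, unadjusted p = 0.0030, adjusted p = 0.264) and 0.24 above the HDAC6 knockout (SE 0.123, adjusted p = 0.815). Without HDAC9 knockout replicate 2 the difference from the HDAC9 knockout was 0.51, and without its replicate 3 it was 0.36. The HDAC9 knockout, in turn, was 0.20 below the HDAC6 knockout (SE 0.123, adjusted p = 1.000), with no overlap between the arrays of the 2 knockouts. Without HDAC9 knockout replicate 3 that difference was -0.11.

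The second Hdac11 probe set, 1454803_a_at, ordered the high-fat group first as well. It read 6.57, 6.51 and 6.72 in HDAC6 knockout livers, 6.47, 6.49 and 6.31 in HDAC9 knockout livers, 6.80, 6.75 and 6.86 in high-fat livers, and 6.45, 6.81 and 6.62 in chow livers. The high-fat arrays lay above 8 of the other 9, with chow replicate 2 (6.81) among them. The difference from chow was 0.17 (SE 0.116, 95% interval -0.07 to 0.42, limma adjusted p = 0.740). It was 0.09 without chow replicate 1 and 0.27 without chow replicate 2. Against the HDAC9 knockout the high-fat group was 0.38 higher (SE 0.116, unadjusted p = 0.0054, adjusted p = 0.351), with no overlap. Without HDAC9 knockout replicate 3 that difference was 0.32, and without its replicate 2 it was 0.415. In that comparison 0.23% of all probe sets were called and none of the 10 members, 2 members had an unadjusted p under 0.05 (7.01% of all), and 2 were free of overlap (13.3% of all). Those 2 were the Hdac11 probe sets.

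Chow replicate 2 set the probe sets of Hdac11 against each other, at the lowest value of the 12 on 1451229_at (7.75) and among the highest on 1454803_a_at (6.81). Over the 12 arrays the 2 probe sets correlated at r = 0.49, and at r = -0.29 once the group means were removed. Lymphocyte markers moved with 1454803_a_at: the median deviation of 9 markers correlated with it at r = 0.83 over the 12 arrays and with 1451229_at at r = 0.39. Bile duct markers ran the other way, at r = -0.75 and -0.52. In the same order, endothelial markers stood at r = -0.39 and -0.43 and hepatocyte markers at r = 0.43 and 0.42. The lymphocyte median ran from 0.06 to 0.34 on high-fat arrays and from -0.14 to 0.18 on chow arrays, where the 0.18 was chow replicate 2, and all 9 markers had higher means in high-fat than in chow livers (median 0.13, 0 called by limma, 1 at an unadjusted p under 0.05). Between high-fat and HDAC9 knockout livers, where the Hdac11 differences had their lowest p-values, the 9 lymphocyte markers were all higher (median 0.33, 0 called, 3 at an unadjusted p under 0.05). The 5 bile duct markers were all lower there (median -0.26, 0 called, 3 at an unadjusted p under 0.05). Mean levels of the lymphocyte markers over the 12 arrays ran from 3.57 to 5.98. The part of these cells in the Hdac11 values was not tested. In whole-liver RNA, fewer cells of a type and less RNA per cell cannot be told apart.

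**Figure D3:**
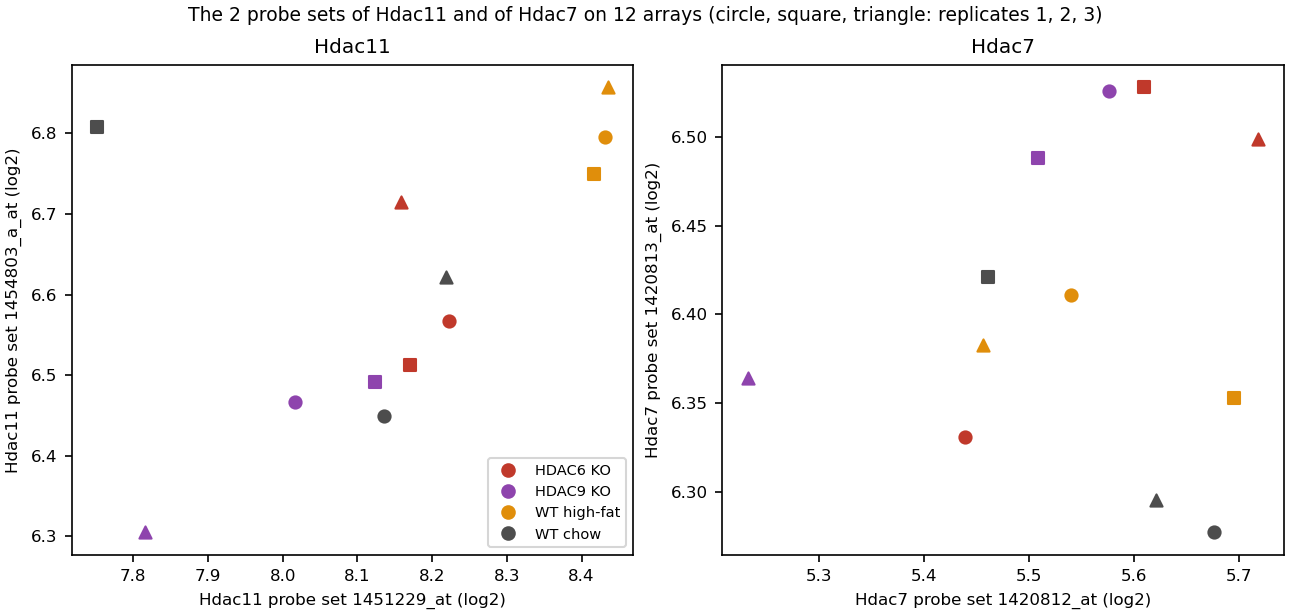
Log2 expression of the 2 probe sets of Hdac11 (left) and of Hdac7 (right) against each other, 1 point per array, coloured by group, with circle, square and triangle for replicates 1, 2 and 3. The high-fat arrays sit at the upper right for Hdac11 (r = 0.49 over 12 arrays), chow replicate 2 sits at the upper left, and the Hdac7 probe sets show little relation (r = 0.10).

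Hdac2 (probe set 1449080_at), a class I subunit of the nuclear corepressor complexes, was lowest in high-fat livers. It read 6.61, 6.53 and 6.23 in HDAC6 knockout livers, 6.34, 6.27 and 6.64 in HDAC9 knockout livers, 5.99, 6.33 and 6.15 in high-fat livers, and 6.39, 6.68 and 6.56 in chow livers. The high-fat arrays lay below all 3 chow arrays and overlapped both knockout groups. The high-fat difference from chow was -0.39 (SE 0.143, 95% interval -0.69 to -0.08, unadjusted p = 0.017, limma adjusted p = 0.488). It was -0.30 without high-fat replicate 1 (limma unadjusted p = 0.075) and -0.32 without chow replicate 2 (limma unadjusted p = 0.0625). Without high-fat replicate 2 it was -0.475 (limma unadjusted p = 0.0105). Markers of bile duct cells moved with Hdac2: the median deviation of 5 markers correlated with it at r = 0.74 over the 12 arrays. It ran from -0.28 to -0.08 on high-fat arrays and from -0.11 to 0.08 on chow arrays, all 5 had lower means in high-fat livers (0 called by limma, 1 at an unadjusted p under 0.05), and the means of the 5 ran from 4.24 to 5.43. Kupffer cell markers ran against Hdac2 (r = -0.58), with 10 of 11 higher in high-fat than in chow livers (median 0.35, 0 called, 6 at an unadjusted p under 0.05). That rise was not particular to the high-fat group. Against chow, 9 of 11 were higher in HDAC6 knockout livers (median 0.195) and 11 of 11 in HDAC9 knockout livers (median 0.27). Hdac2 differed from chow by -0.09 and -0.13 there. Chow replicate 3 had the lowest Kupffer median of the 12 arrays, -0.40. Markers of stellate cells and fibroblasts moved with Hdac2 (r = 0.61), with 7 of 10 lower in high-fat than in chow livers (median -0.15, 0 called, 0 at an unadjusted p under 0.05). Endothelial markers also moved with it (r = 0.54, 7 of 12 lower, median -0.07), and the lymphocyte markers ran against it (r = -0.54). The part of these cell types in the Hdac2 values was not tested.

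Hdac1 (probe set 1448246_at), the paralogue and partner of Hdac2, varied less. It read between 8.07 and 8.26 in HDAC6 knockout livers, 8.16 and 8.41 in HDAC9 knockout livers, 8.07 and 8.19 in high-fat livers, and 8.11 and 8.35 in chow livers, and all 4 groups overlapped. Its largest difference between groups was -0.16 between the high-fat and HDAC9 knockout groups (95% interval -0.38 to 0.07, limma adjusted p = 0.908), and it was -0.09 without HDAC9 knockout replicate 3. Lymphocyte markers ran against Hdac1 (r = -0.63) and bile duct markers moved with it (r = 0.60), and their part in its values was not tested. RefSeq lists a pseudogene copy of Hdac1, and whether the probes also match it was not tested.

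Hdac7, the class IIa member known for its role in blood vessel endothelium, had probe sets that did not follow each other (r = 0.10 over the 12 arrays). Probe set 1420812_at ranged from 5.44 to 5.72 in HDAC6 knockout livers, 5.23 to 5.58 in HDAC9 knockout livers, 5.46 to 5.70 in high-fat livers and 5.46 to 5.68 in chow livers. Probe set 1420813_at ranged from 6.33 to 6.53, 6.36 to 6.53, 6.35 to 6.41 and 6.28 to 6.42 in the same 4 groups. All groups overlapped for both, and the lowest adjusted p of any Hdac7 difference was 0.899. With the median deviation of 12 endothelial markers they correlated at r = -0.19 (1420812_at) and 0.09 (1420813_at). Larger correlations were those of 1420813_at with Kupffer cell (r = 0.52) and neutrophil markers (r = 0.43), and of 1420812_at with adipocyte markers (r = -0.39). The part of these cells in the Hdac7 values was not tested.

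**Figure D4:**
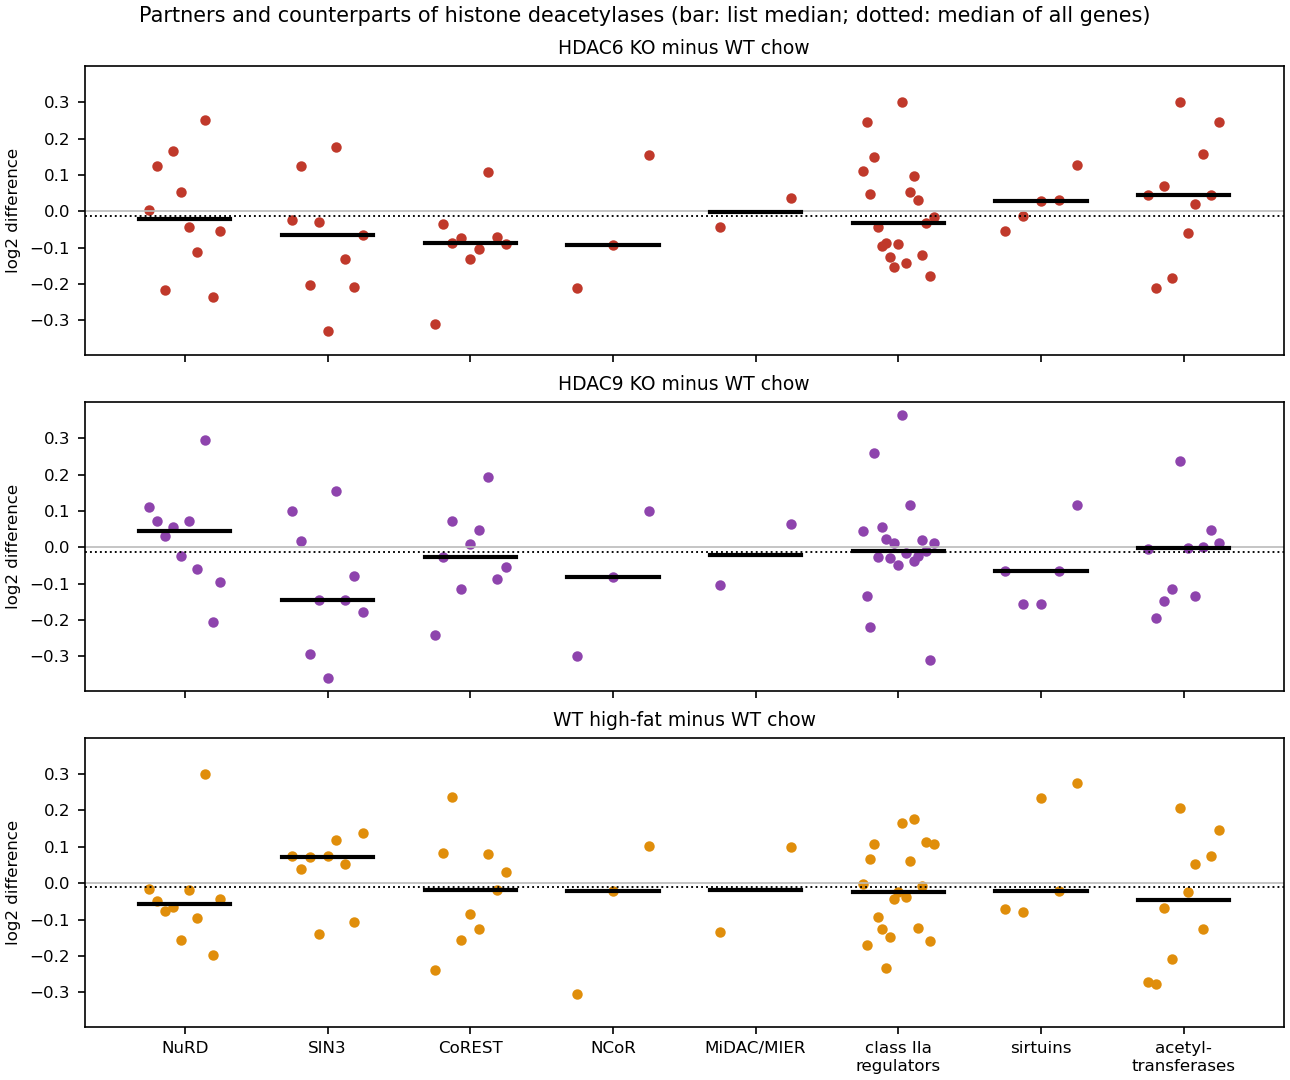
Log2 difference from chow livers (y axis) of 67 genes in 8 lists of histone deacetylase partners and counterparts (points, 1 per gene), with the list median (bar) and the median of all genes (dotted line), in HDAC6 knockout, HDAC9 knockout and high-fat livers. The points lie between -0.36 and 0.36, and none passed the test.

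The partners and counterparts of the enzymes were read from 8 lists holding 87 genes, of which 67 were measured. None was called in any of the 3 comparisons with chow (limma), where 0.00807%, 0.00807% and 0.194% of all genes were called in HDAC6 knockout, HDAC9 knockout and high-fat livers. At an unadjusted p under 0.05 stood 3 of the 67 in HDAC6 knockout livers (4.48%, against 5.55% of all genes), 4 in HDAC9 knockout livers (5.97%, against 5.93%) and 2 in high-fat livers (2.99%, against 8.17%). The 3 comparisons share the chow arrays, so a chow array that stands apart moves all of them in the same direction.

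Among complexes built on HDAC1 and HDAC2, NuRD had 10 of 11 subunits measured, with 5, 6 and 1 higher means in HDAC6 knockout, HDAC9 knockout and high-fat livers and median differences of -0.02, 0.04 and -0.06, against -0.01 for all genes in each. Gatad2b, a zinc finger subunit, had differences of 0.25, 0.29 and 0.30 in those groups (SE 0.098, limma adjusted p = 0.803, 0.804 and 0.388). Rbbp4, a histone-binding subunit, had -0.24, -0.21 and -0.20 (SE 0.101, adjusted p from 0.651 to 0.872). SIN3 had 9 of 13 subunits measured, with medians of -0.07, -0.14 and 0.07. In it Suds3 had -0.33, -0.36 and 0.08 (SE 0.164, adjusted p from 0.851 to 0.930), and Ing1 had -0.21, -0.08 and -0.11 (SE 0.105, adjusted p from 0.834 to 0.946).

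CoREST had 9 of 11 subunits measured, of which 8 had lower means in HDAC6 knockout livers (median -0.09), 5 in HDAC9 knockout livers (median -0.03) and 5 in high-fat livers (median -0.02). Of all genes 45.6%, 46.0% and 47.2% had higher means in those groups. Zmym3 had 0.11, 0.19 and 0.08 (SE 0.106, limma adjusted p from 0.878 to 0.927), and Rcor3 had -0.09, 0.07 and 0.24 (SE 0.149, adjusted p from 0.731 to 0.969). Of the NCoR complex 3 listed genes were measured. Tbl1x had -0.21, -0.30 and -0.31 (SE 0.170, adjusted p from 0.687 to 0.918), and Gps2 had 0.15, 0.10 and 0.10 (SE 0.116, adjusted p from 0.861 to 0.933). Of the MiDAC and MIER complexes 2 of 6 genes were measured, Dnttip1 with -0.04, -0.11 and -0.14 and Mier2 with 0.04, 0.06 and 0.10 (adjusted p of at least 0.766 for both).

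The partners and kinases of the class IIa proteins had 19 of 21 genes measured, with medians of -0.03, -0.01 and -0.02 in HDAC6 knockout, HDAC9 knockout and high-fat livers. Mef2d, a MEF2 factor that class IIa proteins repress, had 0.15, 0.26 and 0.11 (SE 0.116, limma adjusted p from 0.851 to 0.914). Prkd3, a kinase of the family that drives class IIa proteins out of the nucleus, had -0.18, -0.31 and -0.16 (SE 0.146, adjusted p from 0.822 to 0.918). Among sirtuins, the NAD-dependent deacetylases, 5 of 7 were measured: Sirt7 had 0.13, 0.12 and 0.28 (SE 0.114, adjusted p from 0.551 to 0.922), and Sirt2, which like HDAC6 deacetylates tubulin, had -0.01, -0.16 and -0.08 (SE 0.096, adjusted p from 0.873 to 0.994). Acetyltransferases, the opposing enzymes, had 10 of 13 measured: Kat6b had 0.30, 0.24 and 0.21 (SE 0.109, adjusted p from 0.656 to 0.865), and Crebbp had 0.05, 0.00 and -0.27 (SE 0.137, adjusted p from 0.641 to 0.996).

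Within groups the members did not rise and fall as a block. With the 4 group means removed, 24 of the 45 pairs of member probe sets had a correlation above 0 over the 12 arrays, and 6 lay above 0.5. The highest was Hdac3 with Hdac6 (r = 0.86), followed by Hdac6 with Hdac9 (r = 0.63), and Hdac1 with Hdac2 stood at r = 0.56. The lowest was Hdac1 with the Hdac11 probe set 1454803_a_at (r = -0.73). With group means kept, Hdac3 with Hdac6 stood at r = -0.45, Hdac6 with Hdac9 at 0.04 and Hdac1 with Hdac2 at 0.635. High-fat replicate 1 was the lowest high-fat array for both Hdac3 (8.16) and Hdac6 (7.46). These values describe 12 arrays normalized together, with few arrays left once the group means are taken out.

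For the 3 members with the lowest p over the 4 groups, the genes with the most similar pattern were found over all 12 arrays. For Hdac6 they were Gna15 (r = 0.92), Adarb1 (r = 0.91) and Zfp768 (r = 0.84), and with group means removed these became 0.10, 0.55 and 0.56. For Hdac11 probe set 1451229_at they were Tarbp2 (r = 0.94), Rasip1 (r = 0.89) and Dync1li1 (r = 0.88), with 0.86, 0.75 and 0.84 inside groups. For Hdac2 they were Lrrc58 (r = 0.94), Ttc13 (r = 0.94) and Fastkd1 (r = 0.93), with 0.89, 0.92 and 0.90 inside groups, and 11 genes exceeded 0.9 over the 12 arrays. The test over the 4 groups itself gave an adjusted p of 5.65e-05 for Hdac6, 0.516 for Hdac11 and 0.794 for Hdac2 (limma moderated F-test).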

How the data were processed

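Whole-liver RNA was labelled for 12 samples (100 ng each, per the labels' protocols) and hybridised to Affymetrix Mouse430A arrays. The authors deposited log2 values per probe set, made with RMA (robust multi-array average) per the submitters' processing notes. The software, its version and the chip definition are not given in the sources used here. The values were used as they stand, no array was left out, and 0 per-sample columns were unused.

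Genes were named from a public platform annotation: 20380 probe sets had 1 symbol, 691 several and 1555 none. All 22626 were fitted in R 4.3.3 with limma 3.58.1 (4 group means, moderated statistics with a mean-variance trend, 13.97 degrees of freedom), with Benjamini-Hochberg adjustment over all of them for each of 6 comparisons, two-sided, at an adjusted p under 0.05. With 3 arrays against 3 an exact permutation test cannot go below p = 0.1. Partner and marker genes were represented by their probe set of highest mean. The number of arrays limits the precision. The procedure was run on simulated data with independent normal noise and added shifts. Those data held no outlying array and no effect shared across an array, so they do not speak to either. Named were all member probe sets, the 2 genes of lowest p in each partner list, and the 3 genes most like each of 3 members. The members and lists were chosen with earlier results of these data known. Same-numbered replicates were compared for pairing (correlations of deviations from -0.151 to 0.143), and the numbers were not taken to pair samples. Figures used Python 3.11.15, pandas 2.3.3 and matplotlib 3.10.9.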

Additional observations from a re-analysis of the deposited data

How the results depend on the processing

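The counts of called members stayed at 1 in HDAC6 knockout and at 0 in HDAC9 knockout and in high-fat livers against chow, under each of 23 alternatives: the variance prior (no trend, robust), a fit of only the 2 groups compared, quantile normalization, median centring, removal of probe sets below the 25th percentile (10 members left) or the 50th (8 left), 1 probe set or the mean of all probe sets per gene, removal of probe sets with shared probes, a replicate block, and the loss of any single array. Between HDAC9 and HDAC6 knockouts and between high-fat and HDAC6 knockout livers the count stayed at 1, and between high-fat and HDAC9 knockout livers at 0. The Hdac6 difference between HDAC6 knockout and chow ran from -1.75 to -1.57 (adjusted p up to 0.00329). With the replicate block it was -1.63 (adjusted p = 0.000586), and the block changed no call of a member. Over all probe sets, the calls numbered 1 to 3 in HDAC6 knockout, 0 to 14 in HDAC9 knockout and 14 to 54 in high-fat livers against chow (1, 2 and 43 as reported). They numbered 1 to 4 between HDAC9 and HDAC6 knockouts, 14 to 62 between high-fat and HDAC6 knockout livers and 16 to 76 between high-fat and HDAC9 knockout livers (1, 29 and 52 as reported). The lowest count, 14, between high-fat and HDAC6 knockout livers came without HDAC6 knockout replicate 2, the 14 against chow without high-fat replicate 2, and the 16 without high-fat replicate 3. Of 60 member differences, 18 turned sign under some alternative, none of them called and none larger than 0.13. The lowest adjusted p of Hdac11 probe set 1451229_at between high-fat and HDAC9 knockout livers was 0.0849. The number of arrays limits the precision, and whether the Hdac9 probe set could register a fall was not tested.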
